A study of Mus musculus with 2 samples.

Results

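Rab GTPase genes were examined in long-read RNA sequencing of the mouse left cerebral cortex. A gene was taken when the deposited models class it as protein-coding, its name is Rab followed by a number with optional letters, and both libraries list at least 1 read of it. Rab3a was left out by this rule. The rule found 50 genes among the 13061 protein-coding genes listed in both libraries. The annotation holds 58 protein-coding Rab genes without Rab3a. Of the other 8, Rab20 had 0 reads in replicate 1 and 2 in replicate 2, Rab38 had 1 and 0, and Rab7b had 0 and 1. Rab17, Rab19, Rab25, Rab37 and Rab44 had no listed read, where a count of 0 allows up to 3.87 CPM (reads scaled to 1000000 mouse reads per library) in replicate 1 and 3.25 in replicate 2 (3 counts each).

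Rab proteins are small GTPases that mark the membranes of the secretory and endocytic pathways. In the GTP-bound form a Rab sits on a membrane through lipid groups on its C-terminal cysteines and recruits effectors such as tethers, motors and kinases. Guanine nucleotide exchange factors (GEFs) switch it on, GTPase-activating proteins (GAPs) switch it off, and GDP dissociation inhibitors (GDIs) carry it through the cytosol between membranes. In neurons Rabs serve synaptic vesicles, the growth of axons and dendrites, and the transport of receptors and of endosomes along axons.

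The study holds 1 group. It is the left cortex of male B6CASTF1/J mice, F1 hybrids of C57BL/6J with the wild-derived strain CAST/EiJ, taken at 14 days of age with no treatment named in the labels. There were 2 libraries, biological replicates 1 and 2, each from 2 µg of total RNA with ERCC and SIRV spike-ins. One donor identifier is shared by both samples and their descriptions speak of several males, so whether they are separate animals or pools is not settled, and the p-values below set these libraries against counting error alone. No conditions are compared, and reads of the C57BL/6J and CAST/EiJ alleles are not separated in the counts.

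The libraries held 775048 and 924222 mouse reads, of which 689230 and 816387 belonged to protein-coding genes. All levels below are CPM, in the order replicate 1 and replicate 2. One read stands for one transcript molecule, so CPM was not divided by transcript length. Shares carry 95% Wilson intervals, and all intervals and limits cover counting error only. In bulk tissue, fewer cells of a type and less RNA per cell cannot be told apart. Some markers of other cells and regions differed between the libraries. The summed level of 5 striatal markers was 905.8 and 219.6 CPM, with 5 of 5 lower in replicate 2 and Drd2 at 0 reads there. The 4 myelin markers summed to 3045 and 2000 CPM (3 of the 3 tested lower in replicate 2). For 3 haemoglobin genes the sums were 254 and 510 CPM (3 of 3 higher). The 3 choroid plexus genes summed to 38.7 and 256 CPM (the 1 tested was higher, and 1 gene was at 0 in replicate 1). Excitatory neuron genes, 3 in number, summed to 3384 and 4959 CPM (1 of 3 higher). The 1 called was Nrgn (1942 and 3525 CPM), while Slc17a7 (1368 and 1316 CPM) and Camk2a (74.8 and 118 CPM) were not called. Markers of interneurons, astrocytes, microglia and endothelium gave no call in the 10 of 12 genes with enough reads to test, with Gad1 nearest at an adjusted p of 0.0526 (Fisher's exact test, Benjamini-Hochberg adjusted over all genes). The part of these differences in the Rab values was not tested.

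Rab genes together held nearly the same share of both libraries. They had 5410 reads in replicate 1 and 6400 in replicate 2, which is 6980 and 6925 CPM (6952 ± 39.2, SD, n = 2). The log2 ratio of replicate 2 over replicate 1 was -0.01 (-0.06 to 0.04). Rab3a, the synaptic vesicle Rab that the rule leaves out, had 913 and 1087 reads (1177 ± 1.32 CPM), more than any of the 50 genes. The levels of the 50 genes ran from 638 CPM for Rab7 to 2.37 CPM for Rab42, a span of 268.9-fold. Their median of 67.7 CPM lay above the median of 23.8 CPM over all protein-coding genes in both libraries, and 40 of 50 exceeded that value. The 6 highest genes, Rab7, Rab2a, Rab15, Rab14, Rab6a and Rab11b, held 44.0% of Rab reads in replicate 1 and 43.7% in replicate 2.

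**Figure D1:**
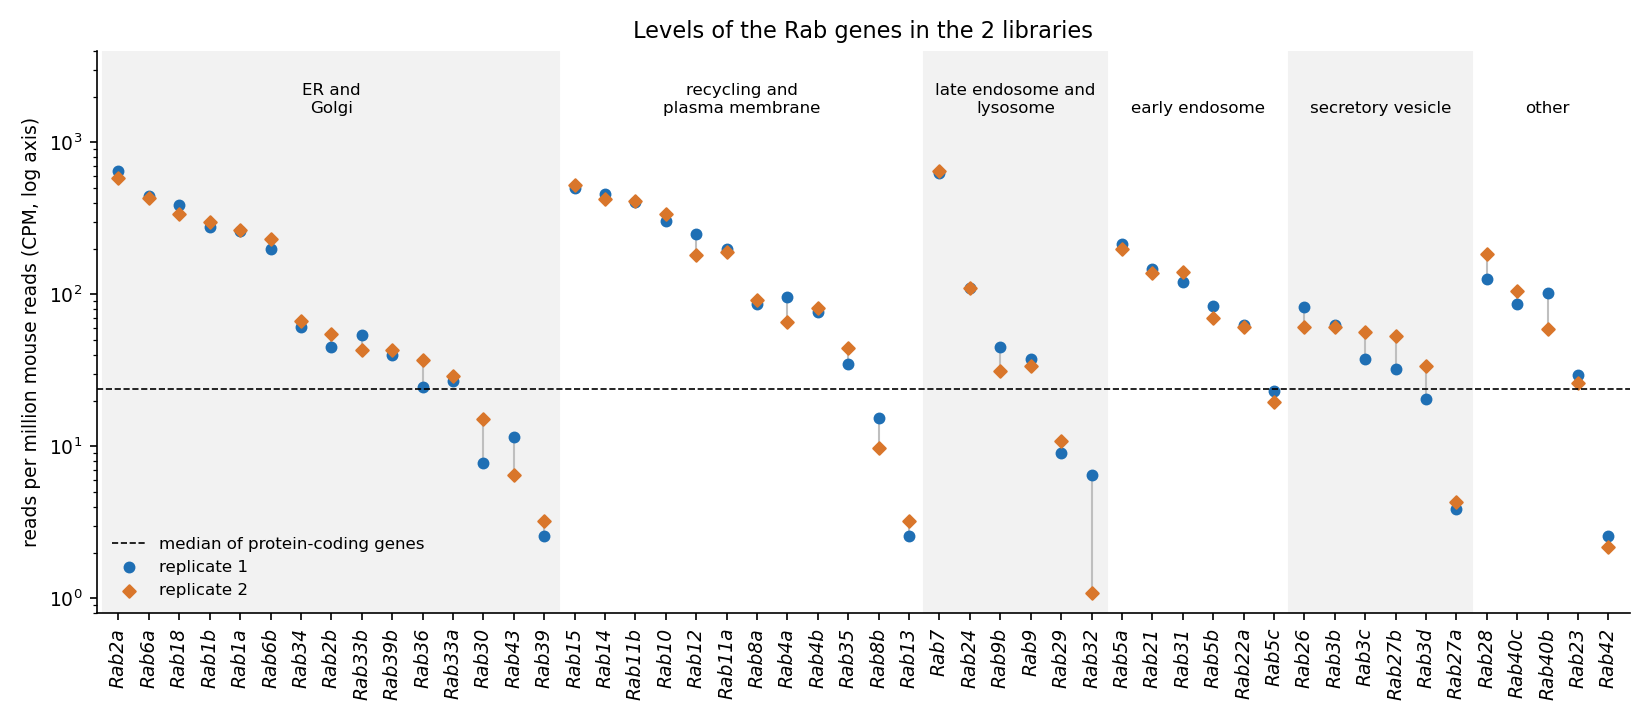
Level of each of the 50 Rab genes in CPM (log axis), grouped by the membrane the protein is known to serve, with replicate 1 as circles and replicate 2 as diamonds. The dashed line is the median of 23.8 CPM over protein-coding genes. Rab7 at 638 CPM and Rab2a at 617 CPM are the highest, and Rab32, with 5 reads and 1, shows the widest gap between the replicates.

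Rabs of the endoplasmic reticulum (ER) and the Golgi were 15 genes. They held 35.7% of Rab reads in replicate 1 (34.4 to 37.0) and 35.4% in replicate 2 (34.2 to 36.5). Rab2a, which acts in traffic between the ER and the Golgi, led with 502 and 542 reads (617 ± 43.3 CPM). Rab6a, which drives retrograde transport at the Golgi, had 346 and 395 reads (437 ± 13.5 CPM). Rab18, a Rab of the ER and of lipid droplets, followed with 299 and 314 reads (363 ± 32.6 CPM). The ER-to-Golgi Rabs Rab1b (288 ± 15.01 CPM) and Rab1a (263 ± 3.15 CPM) stood next to each other with 215 and 276 and with 202 and 245 reads. Rab6b, the form of Rab6 known from neurons, had 154 and 214 reads (215 ± 23.2 CPM), and nearly all of them lay in its last exon, as described further on. The other 9 genes of this group ran from Rab34 (47 and 62 reads) through Rab2b, Rab33b, Rab39b, Rab36, Rab33a, Rab30 and Rab43 down to Rab39 (2 and 3 reads). Between Rab6b at 215 CPM and Rab34 at 63.9 CPM no member of the group was found. That gap depends on the reads counted, since over Known reads Rab6b (14 and 15) stood below Rab34 (28 and 28).

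Rabs of recycling endosomes and of delivery to the plasma membrane held a like share, 34.6% (33.4 to 35.9) and 34.2% (33.0 to 35.3) of Rab reads over 12 genes, and the intervals of these groups overlap. Their order depends on the reads counted, since over reads that match an annotated transcript (Known) alone the recycling group held 36.3% and 36.9% and the ER and Golgi group 34.9% and 33.6%. Rab15, an endocytic Rab that is abundant in brain, led with 385 and 483 reads (510 ± 18.3 CPM). Rab14, which links the trans-Golgi network with endosomes, had 353 and 394 reads (441 ± 20.6 CPM). The recycling endosome Rabs Rab11b and Rab11a had 313 and 382 reads (409 ± 6.70 CPM) and 154 and 175 reads (194 ± 6.61 CPM). Rab10, needed for the delivery of membrane to the growing axon, stood between them with 234 and 310 reads (319 ± 23.7 CPM). Rab12, which sends recycling cargo to degradation, had 193 and 168 reads (215 ± 47.5 CPM), the largest SD of the 6. Rab8a, Rab4a, Rab4b and Rab35 followed at 89.2 to 39.6 CPM, and Rab8b (12 and 9 reads) and Rab13 (2 and 3 reads) were close to the limit of detection.

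Among late endosomal and lysosomal Rabs, 1 gene held most of the reads. Rab7, which directs late endosomes to lysosomes, had 484 and 602 reads (638 ± 19.0 CPM), out of the 645 and 774 reads of all 6 genes. Rab24, a Rab linked to autophagy, came next with 85 and 101 reads (109 ± 0.275 CPM). Rab9b and Rab9, which act in transport from late endosomes to the Golgi, had 35 and 29 and 29 and 31 reads. Rab29, which recruits the kinase Lrrk2, had 7 and 10 reads, and Rab32, a Rab of lysosome-related organelles, 5 and 1. The group held 11.9% (11.1 to 12.8) and 12.1% (11.3 to 12.9) of Rab reads.

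Early endosomal Rabs were spread more evenly. Rab5a, which controls the fusion of early endosomes, had 167 and 183 reads (207 ± 12.4 CPM). Rab21, which acts in integrin uptake, had 114 and 128 reads (143 ± 6.08 CPM). Rab31, a Rab of the trans-Golgi and endosomes, had 94 and 130 reads (131 ± 13.7 CPM). Below these, the count was 65 in each library for Rab5b, 49 and 56 for Rab22a and 18 in each library for Rab5c. Together the 6 genes held 9.37% (8.62 to 10.2) and 9.06% (8.38 to 9.79) of Rab reads.

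Secretory vesicle Rabs other than Rab3a were the smallest of the named groups, at 3.44% (2.98 to 3.96) and 3.88% (3.43 to 4.38) of Rab reads over 6 genes. Rab26, which marks secretory granules and synaptic vesicles, had 64 and 56 reads (71.6 ± 15.5 CPM). The relatives of Rab3a were lower still, with 49 and 56 reads for Rab3b, 29 and 52 for Rab3c and 16 and 31 for Rab3d. Rab27b, a Rab of regulated exocytosis, had 25 and 49 reads, while its relative Rab27a had 3 and 4. All 6 genes together reached 240 and 268 CPM, less than Rab3a alone at 1178 and 1176 CPM.

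A last set of 5 genes has other roles. Rab28, known for its part in cilia and photoreceptors, had 98 and 171 reads (156 ± 41.4 CPM). Rab40c and Rab40b, which carry a SOCS box and serve in ubiquitin ligases, had 67 and 97 and 79 and 55 reads. Rab23, an inhibitor of hedgehog signalling, had 23 and 24 reads and Rab42 had 2 in each library. The set held 4.97% (4.42 to 5.58) and 5.45% (4.92 to 6.04) of Rab reads.

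No Rab gene that was tested differed between the libraries beyond counting error after adjustment. Of the 50 genes, 45 reached 10 reads in the sum of both libraries and were tested (two-sided Fisher's exact test of the reads of a gene against all other mouse reads, Benjamini-Hochberg over all 11203 annotated genes tested, threshold 0.05). The test called 0 of 45 Rab genes, where 2.11% of all tested genes were called. At an unadjusted p under 0.05 there were 5 of 45 (11.1%), near the 11.2% among all tested genes. Rab27a, Rab32, Rab13, Rab39 and Rab42 had too few reads to test. The median size of the log2 ratio was 0.19 over the Rab genes tested and 0.28 over all genes tested. These medians were not matched for read depth, on which the counting error of a ratio depends. Of the Rab ratios, 23 lay above 0 and 22 below. Across the 50 genes, log2(CPM + 1) of the libraries correlated with a Pearson's r of 0.977, a description over genes of 2 libraries with no test.

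The 5 genes with an unadjusted p under 0.05 did not share a direction. Rab40b stood at 102 and 59.5 CPM (log2 ratio -0.77, -1.27 to -0.28, adjusted p = 0.0842 by Fisher's exact test). Rab12 stood at 249 and 182 CPM (-0.45, -0.75 to -0.16, adjusted p = 0.0993). Rab4a, a Rab of rapid recycling, stood at 95.5 and 66.0 CPM (-0.53, adjusted p = 0.398). The other 2 were higher in replicate 2. Rab28 stood at 126 and 185 CPM (0.55, 0.19 to 0.90, adjusted p = 0.0918) and Rab27b at 32.3 and 53.0 CPM (0.70, adjusted p = 0.435).

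**Figure D2:**
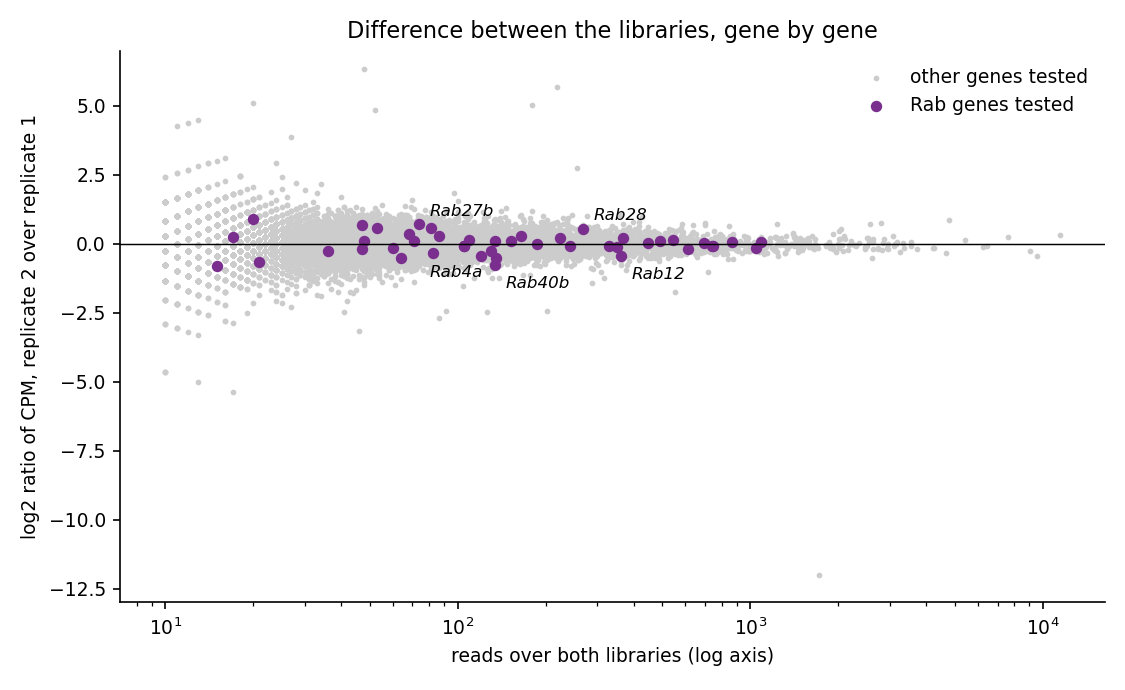
Log2 ratio of CPM, replicate 2 over replicate 1, against the reads of a gene over both libraries (log axis), with Rab genes as large points over all other genes tested in grey. The 5 labelled Rab genes have an unadjusted p under 0.05 and none passed after adjustment, the lowest adjusted p being 0.0842 for Rab40b.

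None of the listed Rab regulators and effectors that could be tested was called either. A hand-written list of 131 GEFs, GAPs, GDIs, escort and prenylation genes and effectors had 116 genes with a read in both libraries and 101 that could be tested. The test called 0 of 101, against 2.11% of all genes, and 16 (15.8%) had an unadjusted p under 0.05, against 11.2% of all genes tested. Their median log2 ratio was -0.18, with 37 above 0 and 64 below, while the median over all genes tested was -0.01. Gdi2, a widely expressed GDI, had 212 and 184 reads, with the lowest adjusted p of the list (0.0699, Fisher's exact test). The prenylated Rab acceptor Rabac1 had 78 and 95.

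Tbc and Evi5 proteins are GAPs with the catalytic TBC domain, and DENN proteins are GEFs. Among GAPs, Tbc1d9b had 157 and 168 reads, Tbc1d10b 96 and 99 and Evi5l 86 and 109. Among GEFs the leading genes were Dennd5a (132 and 147 reads), Trappc9, a subunit of the TRAPP complex (103 and 105 reads), and Dennd6b (69 and 102 reads). Among the genes listed as effectors, Rundc3a had the most reads, 349 and 503, and its place there rests on the hand-written list alone. Vps41 of the HOPS tether followed with 202 and 178 and the Rab3 effector rabphilin, Rph3a, with 109 and 177. Rabggta and Rabggtb, the subunits of the geranylgeranyl transferase that lipidates Rabs, had 43 and 46 and 53 and 56 reads. The chaperone gene Rabif had 93 and 117.

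Closely related Rab genes were used very unequally in some subfamilies and evenly in others. Among the 50 genes, 28 fall into 13 subfamilies that share a number, 11 with 2 members and 2 with 3. Rab2a held 93.5% (91.1 to 95.3) and 91.4% (88.9 to 93.4) of the reads of Rab2a and Rab2b. Rab39b, the X-linked gene of which loss causes intellectual disability in people, held 93.9% (80.4 to 98.3) and 93.0% (81.4 to 97.6) of reads against Rab39. Rab27b held 89.3% (72.8 to 96.3) and 92.5% (82.1 to 97.0) against Rab27a. Rab8a held 84.8% (75.3 to 91.1) and 90.4% (82.8 to 94.9) against Rab8b. In these 4 subfamilies 1 member supplied over 80% of the reads in both libraries.

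A middle class had a leading member with roughly 60% to 70% of the reads. Rab11b held 67.0% (62.6 to 71.1) and 68.6% (64.6 to 72.3) against Rab11a. In the Rab5 subfamily, Rab5a held 66.8% (60.7 to 72.3) and 68.8% (63.0 to 74.1), Rab5b 26.0% and 24.4%, and Rab5c 7.20% and 6.77%. For Rab33b the share was 66.7% (54.4 to 77.1) and 59.7% (47.7 to 70.6) against the X-linked Rab33a, and in replicate 2 the interval holds 50%. Rab6a held 69.2% (65.0 to 73.1) and 64.9% (61.0 to 68.5) against Rab6b. That share depends on which reads are counted, since with reads of annotated transcripts alone Rab6a held 95.9% (mean of both libraries) in place of 67.0%.

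In the Rab1, Rab4 and Rab9 subfamilies no member led. Rab1b held 51.6% (46.8 to 56.3) and 53.0% (48.7 to 57.2) against Rab1a. The share of Rab9b against Rab9 was 54.7% (42.6 to 66.3) and 48.3% (36.2 to 60.7), and that of Rab4a against Rab4b 55.6% (47.2 to 63.8) and 44.9% (36.8 to 53.2). All 6 of these intervals hold 50%. The Rab3 shares leave out Rab3a, which had 913 and 1087 reads against 94 and 139 of the other 3 genes together. Among those, Rab3b, Rab3c and Rab3d held 52.1%, 30.9% and 17.0% in replicate 1. There the intervals of Rab3b (42.1 to 61.9) and Rab3c (22.4 to 40.8) do not overlap. In replicate 2 they held 40.3%, 37.4% and 22.3%, and the intervals of Rab3b and Rab3c overlap. With Known transcripts alone the shares were 63.9%, 19.4% and 16.7% in replicate 1 and 57.8%, 16.7% and 25.6% in replicate 2, so that Rab3d then stood above Rab3c in replicate 2. Rab40c held 45.9% (38.0 to 54.0) of the reads of Rab40c and Rab40b in replicate 1, where the interval holds 50%. In replicate 2 it held 63.8% (55.9 to 71.0), and the intervals of the libraries do not overlap. Subfamily shares were not tested between the libraries, and the test on reads called neither Rab40c nor Rab40b.

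**Figure D3:**
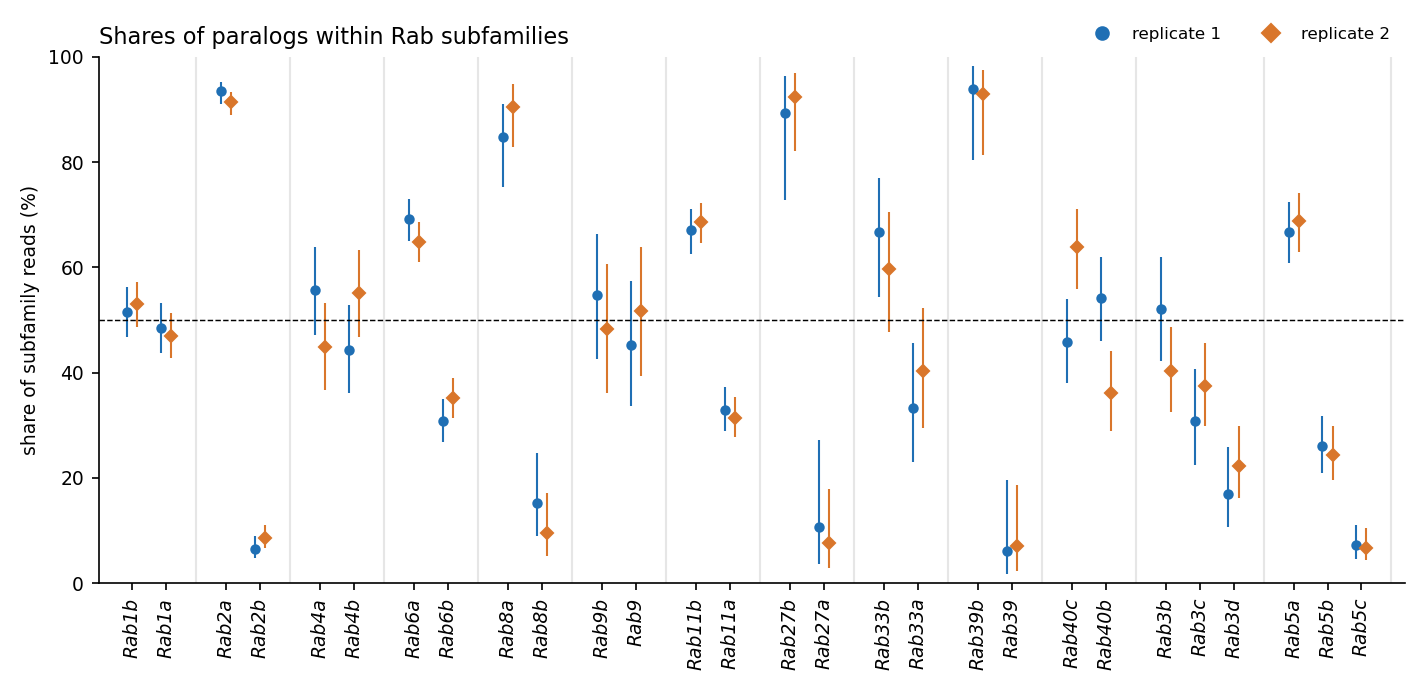
Share of the reads of a Rab subfamily held by each member, in percent, for replicate 1 (circles) and replicate 2 (diamonds) with 95% Wilson intervals and a dashed line at 50%. Rab2a, Rab39b, Rab27b and Rab8a sit above 80% in both libraries, Rab1, Rab4 and Rab9 genes straddle the line, and Rab40c stands at 45.9% and 63.8%. The Rab3 shares leave out Rab3a.

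The C-terminal codons group the same genes in another way. Rab proteins are anchored by geranylgeranyl lipids on cysteines at their end, so the last 5 codons and the stop codon of the leading annotated transcript were read from the GENCODE M21 transcript sequences. All 50 genes had at least 1 cysteine codon among the last 5, against 10.0% of 11334 protein-coding genes read the same way, and 42 of 50 had at least 2, against 1.11%. The sequences below show 1 or 2 genes for each arrangement, 5′ to 3′ on the coding strand, with cysteine codons in capitals and the stop codon as the last 3 letters.
Rab7: gaaagcTGCagtTGTtga
Rab15: aagaccTGCtggTGCtga
Rab2a: gggggaggcTGCTGTtga
Rab10: aagagcaagTGCTGCtga
Rab5a: cagTGTTGTagtaactga
Rab24: agcTGTTGTcatcactga
Rab11b: TGCTGCcagagcctgtga
Rab8a: cggTGCagtctcctgtga
Rab40b: agcTGCaaaatttcttag
Rab34: gccacaTGTTGTccctga
The arrangement of Rab7 and Rab15, with cysteines in the last and third-last codons, was found in 18 genes that held 38.5% and 39.6% of Rab reads. Cysteines in the last and second-last codons, as in Rab2a and Rab10, were found in 14 genes with 30.4% and 30.1% of reads. A single cysteine in the fourth-last codon, as in Rab8a and Rab40b, was found in 8 genes with 11.96% and 11.8% of reads. The arrangement of Rab11b (Rab11a, Rab21 and Rab30 share it) held 10.9% of reads in both libraries, that of Rab5a and Rab24 (5 genes) 7.38% and 6.61%, and that of Rab34 was found in Rab34 alone. In all 13 subfamilies the members shared 1 arrangement.

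Most Rab reads matched an annotated transcript. The deposited class Known held 87.2% (86.3 to 88.1) of Rab reads in replicate 1 and 84.7% (83.8 to 85.6) in replicate 2, and 72.8% and 71.7% of the reads of all protein-coding genes. Chains that join annotated splice sites in a new way (NIC) held 2.42% and 2.47% of Rab reads, and chains with an unannotated splice site (NNC) 2.05% and 1.97%. Over all protein-coding genes the shares were 7.07% and 6.87% for NIC and 4.43% and 4.498% for NNC. Incomplete splice matches (ISM), which hold part of an annotated chain of introns, took 5.16% and 3.61%. Genomic models, which overlap a gene without matching its splicing, took 3.18% and 7.22%. The last-exon reads of Rab6b carry the label ISM in replicate 1 (140 of the 279 ISM reads). In replicate 2 they carry the label Genomic (196 of the 462 Genomic reads). These 2 classes are therefore best read together, at 8.34% and 10.8% of Rab reads, against 15.7% and 17.0% over all protein-coding genes.

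Single isoforms dominated the Rab genes. Isoform shares were computed over Known, NIC and NNC models, and 24 Rab genes had at least 50 such reads per library. Over these genes the median share of the leading isoform was 94.7%, against 88.1% over all 2631 genes of that depth, and it was an annotated transcript in 24 of 24. It held at least 90% in 16 of 24 Rab genes (66.7%) and in 45.8% of all genes. At least 2 isoforms reached 10% in both libraries in 3 of 24 Rab genes (12.5%), Rab24, Rab40c and Rab5b, where 28.5% of all genes of that depth did. The share of the leading isoform differed between the libraries in 0 of 24 Rab genes (Fisher's exact test, lowest adjusted p = 1, 0 at an unadjusted p under 0.05), where 0.474% of 2532 genes tested were called. At a minimum of 20 reads, 6 of 36 Rab genes had several isoforms, adding Rab22a, Rab27b and Rab34, and with Known transcripts alone only Rab40c of 20 did.

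Rab40c had the most even pair of isoforms. Rab40c-201 had 33 and 49 reads, 53.2% (of 62) and 57.0% (of 86), and Rab40c-207 had 25 and 29, 40.3% and 33.7%. The transcripts differ outside the coding part, where Rab40c-207 keeps an intron of 102 bases (chr17:25919550-25919651) that Rab40c-201 removes. In Rab24 the annotated Rab24-201 had 48 and 56 reads, and an unannotated NIC form that keeps an intron of 191 bases in the coding span (chr13:55320554-55320744) had 16 and 21, which is 22.2% and 24.1%. A further Rab24 form with another splice site at chr13:55320237 had 4 and 6 reads. Exons of Rab24 share 775 bases with Prelid1 on the opposite strand, which had 63 and 93 reads of its own.

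Rab5b used a second donor site outside its coding part. Rab5b-201 had 45 and 38 reads, and an NNC form with a longer first exon had 6 and 11, which is 11.1% and 21.2% of 54 and 52 reads. Among genes under the depth limit, Rab34-203 had 19 and 23 reads against 9 and 4 of Rab34-201, and Rab27b-203 had 12 and 35 reads against 3 and 6 of Rab27b-201. Both pairs differ in introns outside the coding span. Rab27b also had an NNC form with 5 and 2 reads that uses another splice site in the coding span.

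**Figure D4:**
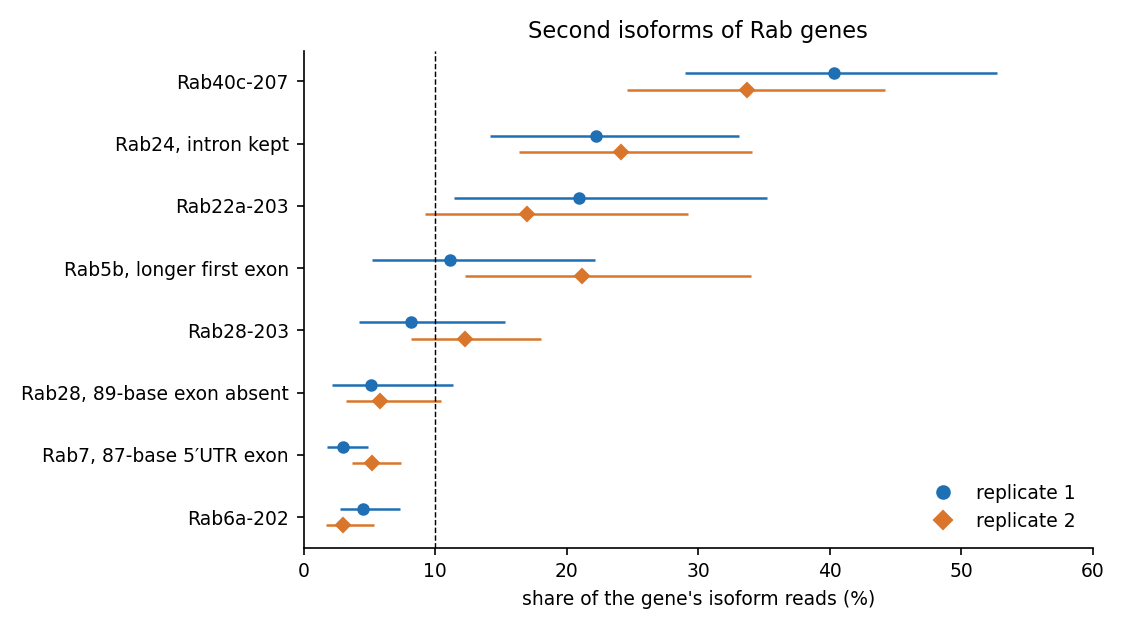
Share of a gene's isoform reads held by 8 second isoforms of Rab genes, in percent, for replicate 1 (circles) and replicate 2 (diamonds) with 95% Wilson intervals; the dashed line marks 10%. Rab40c-207 at 40.3% and 33.7% is the highest, the Rab24 form with a kept intron stands at 22.2% and 24.1%, and Rab6a-202 stays under 5% in both libraries.

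Few of the Rab exons that were both included and skipped stood at an intermediate level. An internal exon was scored when some reads held both of its junctions, others joined its neighbours directly, and each library had at least 20 such reads together. Exons that no read skipped were not scored, so the shares are not shares of all Rab exons. Of 46 Rab exons scored, 23 were included in under 10% of reads in both libraries and 21 in over 90%. Another 1 (2.17%) was included at 10% to 90% in both libraries, against 10.8% of 7511 exons of all genes scored the same way. It lies in Rab22a, an early endosomal Rab. A single read of the rarer kind was enough to score an exon. An exon of Rab8a had 62 reads with it and 1 without in replicate 1, and 79 and 0 in replicate 2. The number scored therefore depends on read depth, for which the shares of Rab genes and all genes were not matched.

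Rab6a holds a pair of mutually exclusive exons, and the libraries used mostly 1 of them. The exon of Rab6a-201 (chr7:100629838-100629943) was read in 310 of 325 reads in replicate 1, 95.4% (92.5 to 97.2), and in 352 of 363 in replicate 2, 97.0% (94.7 to 98.3). The exon of Rab6a-202 (chr7:100629666-100629771) was read in 15 and 11 reads, 4.62% (2.82 to 7.47) and 3.03% (1.70 to 5.34). A single read of replicate 1 held both. The scoring of internal exons above counted only reads with both exons as inclusion of the Rab6a-202 exon (0.323% and 0%). That score, among the 23 under 10%, does not measure the use of this pair. Each exon is 106 bases long, both transcripts have 208 codons, and the proteins differ at 3 residues. The same exon of the second gene, Rab6b-201, lies at chr9:103161064-103161169. The exons are shown on the plus strand of mm10 from the GENCODE M21 transcripts, so that the reader can set the forms side by side. Capitals mark bases that differ between the 2 Rab6a exons, and in Rab6b bases that differ from the exon of Rab6a-201.
Rab6a-201: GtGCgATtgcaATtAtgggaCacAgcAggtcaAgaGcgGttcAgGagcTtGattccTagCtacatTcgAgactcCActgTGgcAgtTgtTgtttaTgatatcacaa
Rab6a-202: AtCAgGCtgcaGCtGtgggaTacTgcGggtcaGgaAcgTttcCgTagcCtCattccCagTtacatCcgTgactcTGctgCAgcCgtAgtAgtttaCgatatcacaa
Rab6b-201: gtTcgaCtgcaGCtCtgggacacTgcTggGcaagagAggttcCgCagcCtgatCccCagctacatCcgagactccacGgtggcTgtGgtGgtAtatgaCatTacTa
The Rab6a exons share 76 of 106 bases (71.7%) and code for residues that differ at 3 positions. The Rab6b exon shares 83 of 106 bases (78.3%) with that of Rab6a-201 and codes for the same residues over its 35 whole codons, whereas against the exon of Rab6a-202 it differs at 3.

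Rab28 changes its C-terminal end by an exon. The 95-base exon of Rab28-203 (chr5:41626987-41627081) was included in 9.68% (5.18 to 17.4) and 13.3% (8.92 to 19.3) of reads. Rab28-203 had 8 and 21 reads, and Rab28-201 had 79 and 134. The exon brings its own stop codon, so that Rab28-201 has 221 codons and Rab28-203 has 220. The coding part of that exon (chr5:41626992-41627081, minus strand, stop codon in capitals) and the last 5 codons with the stop of each form (cysteine codons in capitals) are printed to show what the exon replaces.
Rab28-203 exon: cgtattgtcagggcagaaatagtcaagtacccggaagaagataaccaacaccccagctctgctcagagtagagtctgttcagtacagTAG
Rab28-203 end: gtcTGTtcagtacagtag
Rab28-201 end: atgTGTgcagtgcagtga
Both ends keep a single cysteine in the fourth-last codon. An 89-base exon of Rab28 (chr5:41698390-41698478) was included in 92.8% (85.8 to 96.5) and 93.5% (88.8 to 96.3) of reads, and an NIC form without it had 5 and 10 reads. In Rab7, an 87-base exon of the 5′UTR (chr6:88015632-88015718) was included in 3.03% (1.81 to 5.02) and 5.27% (3.72 to 7.43) of reads, on an NIC form with 14 and 30 reads.

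Some Rab genes were represented by reads that lay in the last exon alone. Such reads hold no splice junction. Rab6b was the extreme case, with 140 of 154 reads (90.9%) and 196 of 214 (91.6%) inside the last exon at chr9:103181182-103185276. Of Rab6b-201, 14 and 15 reads came from the annotated chain of introns. The level of Rab6b over Known transcripts alone was 26.3 CPM (mean of both libraries) in place of 215. For the value of 26.3 the library total was also cut to Known mouse reads, so these levels do not share a total. In Rab3c, 14 of 29 reads (48.3%) and 37 of 52 (71.2%) lay in the last exon, and in Rab31 16 of 94 (17.0%) and 34 of 130 (26.2%). Rab5b had 16.9% and 15.4% such reads, Rab2b 11.4% and 11.8%, and Rab15 10.4% and 10.1%.

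These 6 were the genes with a mean of at least 10% among the 37 Rab genes with 50 reads or more over both libraries. The median over the 37 genes was 2.04%, and 25 of them had at least 90% of their reads with a full chain of introns. Such reads were nearly all those on Known, NIC or NNC models (for Rab21, 111 and 117 of 113 and 119). The 3′UTR of the leading transcripts ran from 265 bases (Rab24) to 7628 bases (Rab3c) with a median of 1975. Across the 37 genes the share of last-exon reads was higher where the 3′UTR was longer (Spearman's rho 0.545). The share of reads with a full chain of introns showed little relation with it (rho -0.10). These are descriptions across genes that share 2 libraries, with no test. A long 3′UTR did not always go with such reads: Rab22a, at 6224 bases, had 12.2% and 3.57%, Rab18, at 5774 bases, had 0.334% and 0.637%, and Rab11b, at 5184 bases, had 1.28% and 2.36%.

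**Figure D5:**
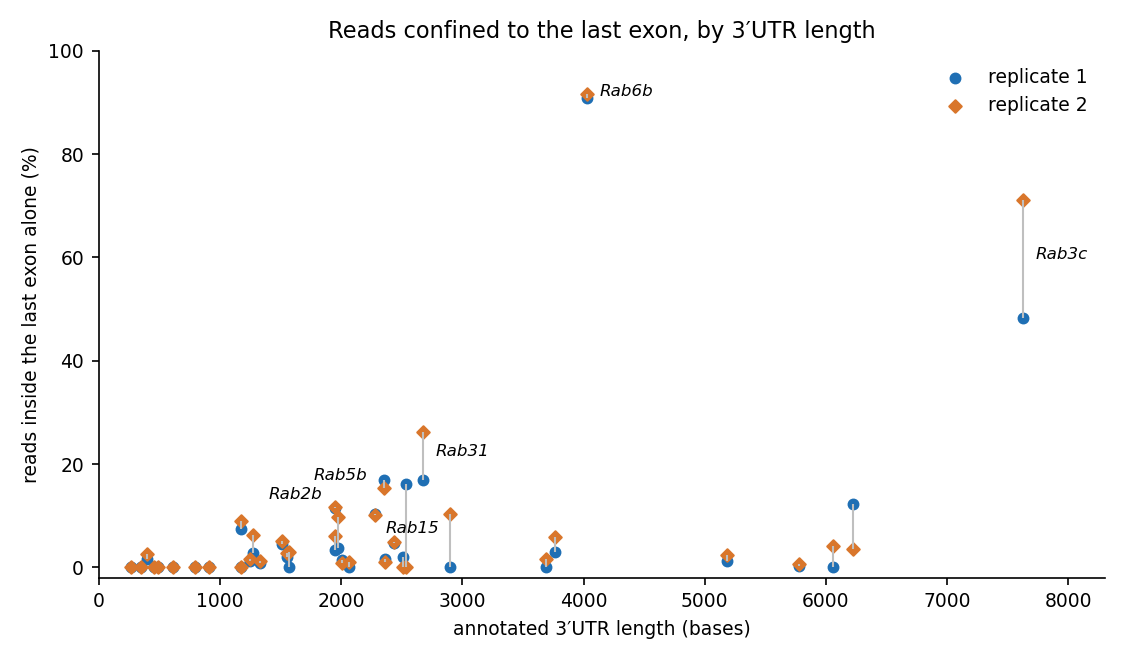
Share of a gene's reads that lie inside the last exon alone, in percent, against the annotated 3′UTR length in bases, for the 37 Rab genes with 50 reads or more in the sum of the libraries (replicate 1 as circles, replicate 2 as diamonds, joined by a line). Rab6b at 90.9% and 91.6% and Rab3c at 48.3% and 71.2% stand above the rest, and Rab18 and Rab11b, with 3′UTRs of 5774 and 5184 bases, sit near 0.

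For a few Rab genes the assignment of reads is less certain. The leading transcripts of 17 of 50 genes share exon bases with another annotated gene, 4 of them on the same strand. Rab43 shares 4164 bases with the protein-coding Gm45140, which had 4 and 1 reads beside the 9 and 6 of Rab43. Rab4b shares 1016 bases with Gm21983, which had no listed read. Rab6a shares 708 bases with Mrpl48 on the opposite strand, which had 34 and 50 reads. Rab2b shares 195 bases with Tox4 on the opposite strand, which had 76 and 111 reads beside the 35 and 51 of Rab2b. Another 2059 bases of Rab2b are shared with Gm43766 on the opposite strand, which had no listed read.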

How the data were processed

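Long-read RNA sequencing of 2 libraries of 1 group was analysed. The authors deposited, per library, read counts of transcript models as whole numbers without normalization, and the exons of those models. Per the deposited text beside the tables, the models were made on mm10 with GENCODE M21, and TALON is named in the models as the source of new features. The aligner is not given in the sources used here.

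Counts were summed per gene over all models and scaled to all mouse reads (CPM), with spike-in reads left out. Unannotated models were matched between libraries by their chain of introns. Fisher's exact test (SciPy 1.17.1, Python 3.11.15) took genes with at least 10 reads, and log2 ratios had 0.5 reads added to each count. A fit with replicate spread could not be made with 1 group of 2 libraries. TMM factors came from edgeR 4.0.16 and serve an alternative total only. Sequences come from the GENCODE M21 transcripts on mm10.

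The genes, role groups and regulator list were chosen with earlier results of these data known. Named are, in each role group, the 6 genes with the highest mean CPM, all genes past a test, all genes with several isoforms, all members of subfamilies and the 3 highest regulators of each class. Other genes are named for their isoforms, unadjusted p or last-exon reads and were chosen after their values were seen. Alternatives covered the models counted, the library total, read minimums, isoform and inclusion limits and leaving out a replicate. Amino-acid sequences were not used here, and 1 regulator named by this rule and 1 exon are not reported here.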

Additional observations from a re-analysis of the deposited data

Results flagged for a closer look

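Reads were found on annotated loci that carry a Rab name but are not protein-coding genes. Rab10os, an antisense transcript whose exons share 143 bases with Rab10 on the opposite strand, had 56 reads in replicate 1 and 58 in replicate 2. Rab11b-ps2, a processed pseudogene of Rab11b, had 19 reads in replicate 1 and 17 in replicate 2. A processed pseudogene is a near copy of its parent transcript, so the split of reads between it and Rab11b (313 and 382 reads) is uncertain. All 4 counts exceeded the 3 counts that a count of 0 allows.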

How the results depend on the processing

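The count of Rab genes called between libraries was 0 under the alternatives run for the models counted, the read minimum, the library total and the members. For the regulators it was 0 under those for the models, the minimum and the total, and for the leading isoform shares under those for the models and the minimum. The number of Rab genes with several isoforms was 3 as reported, 6 at a minimum of 20 reads, 0 at 100 reads, 1 with Known transcripts alone, and 3 to 5 when 1 replicate was left out. Summed Rab CPM was 6952 as reported, 7844 over protein-coding reads, 7428.5 with effectors named Rab included, and 6925 to 6980 without 1 replicate. It was 9158 with Known transcripts alone and 7922 with spliced models alone. In both of these settings the library total was also cut to mouse reads of that kind, so the value rose although fewer Rab reads were counted. The Known share was 86.0% as reported (mean of both libraries), 88.7% over models with at least 2 reads, 92.9% over spliced models, and 84.7% to 87.2% without 1 replicate. Alternative Rab exons numbered 1 as reported, 0 at a minimum of 50 reads, 3 at an inclusion of 5% to 95%, and 1 to 2 without 1 replicate. With Known transcripts alone 39 of 50 gene levels and 6 of 13 subfamily shares moved by over 1 SD. With protein-coding reads as the total 30 of 50 levels did. Both settings changed the library total, which by itself shifts every level but not the subfamily shares. The shares of the role groups over Known transcripts alone were added after seeing the data. Genes under 50 reads in a library, 25 of 50, give wide intervals for shares.
No paired analysis was possible because there is 1 group.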
